A study of Mus musculus with 6 samples.

Results

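Genes of fatty acid oxidation and of peroxisomes were examined in the sciatic nerve of mice in which RhoA was targeted in motoneurons. The set holds 32 genes, chosen by name for what their products do, and all 32 were matched by symbol to an Ensembl gene ID among the 55335 genes of the deposited table. The icKO group (n = 3) consisted of RhoAfl/fl ChATCreERT2+ mice, and the flox group (n = 3) of RhoAfl/fl mice, so both groups carried the homozygous floxed RhoA allele and differed by the inducible Cre. Nerves were collected at postnatal day 14. ChAT-CreERT2 is a drug-inducible Cre recombinase driven from the choline acetyltransferase gene, which is active in cholinergic neurons such as spinal motoneurons, whose cell bodies lie outside the nerve. The time of induction was not given, nor whether flox mice received the inducing drug. The lysate of a nerve can hold polyadenylated RNA of Schwann cells, fibroblasts, vascular and immune cells, fat and attached muscle, and in such a bulk sample fewer cells of a type and less RNA per cell cannot be told apart. The comparison asks how the nerve's transcripts differ when a small GTPase of motoneurons is targeted.

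Fatty acids enter mitochondria as carnitine esters and are shortened there in a repeating spiral of dehydrogenation, hydration, a further dehydrogenation and thiolysis, each turn releasing acetyl-CoA and electrons for the respiratory chain. Peroxisomes run a related pathway for very long and branched chains, which they import through ABC transporters, and pass the shortened products on to mitochondria. In the peripheral nerve, peroxisomes are known for making the ether lipids of myelin and for removing very long chain fatty acids, and human disorders of peroxisomes and of their transporters damage myelin.

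Values are FPKM, fragments scaled to transcript length and library depth, so levels of different genes can be compared per length. The depth was estimated at 17800000 to 19500000 fragments in the icKO libraries and 17200000 to 20600000 fragments in the flox libraries. Rhoa itself was at 36.4, 33.6 and 33.2 FPKM in icKO nerves and at 36.5, 39.0 and 38.0 FPKM in flox nerves, a difference that did not pass (limma, Benjamini-Hochberg adjusted p = 0.195), and Rhoa is transcribed widely, also in cells with no ChAT-driven Cre. Xist reached 46.1 FPKM in flox replicate 2 and no more than 0.0282 FPKM elsewhere, so the flox group held a female library and the icKO group none. The labels do not state whether replicates were different animals, and p-values then measure only the spread between these samples.

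Sequences upstream of the transcription start are shown for 4 of the genes the results turn on, 250 bases each, from RefSeq's promoter table for build GRCm38.p6, which is not the build of the expression table (GRCm39). Of the 32 genes, 25 had an entry, and Decr1, Acaa2, Hsd17b4, Abcd2, Crat, Acot13 and Pex19 had none. Hadhb (chr5:30155003-30155252, plus strand) is shown because this stretch lies between the starts of Hadha and Hadhb, which are transcribed away from each other 273 bases apart. Etfb (chr7:43443822-43444071, plus strand) is shown as the strongly expressed gene with the clearest fall among those with an entry. Acadm (chr3:153944644-153944893, minus strand) and Acads (chr5:115119347-115119596, minus strand) are shown because these related dehydrogenases went opposite ways. Each sequence runs 5′ to 3′ along its gene and ends at the base before the start. Capitals mark GC boxes (GGGCGG or its complement) in Hadhb and Acads, a match to the NRF1 motif (GCGCA and GCGC with 1 base between them) in Etfb, and a match to the nuclear receptor motif AAGGTCA in Acadm, read on the other strand.
Hadhb: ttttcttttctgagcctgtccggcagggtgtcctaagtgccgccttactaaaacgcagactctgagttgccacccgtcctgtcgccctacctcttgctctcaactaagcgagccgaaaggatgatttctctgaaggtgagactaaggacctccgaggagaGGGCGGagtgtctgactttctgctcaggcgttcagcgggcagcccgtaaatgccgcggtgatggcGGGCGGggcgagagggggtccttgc
Etfb: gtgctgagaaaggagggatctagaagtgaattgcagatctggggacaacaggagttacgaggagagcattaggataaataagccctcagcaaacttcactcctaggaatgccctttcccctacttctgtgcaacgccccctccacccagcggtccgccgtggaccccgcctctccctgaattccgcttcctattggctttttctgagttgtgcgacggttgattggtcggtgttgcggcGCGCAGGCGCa
Acadm: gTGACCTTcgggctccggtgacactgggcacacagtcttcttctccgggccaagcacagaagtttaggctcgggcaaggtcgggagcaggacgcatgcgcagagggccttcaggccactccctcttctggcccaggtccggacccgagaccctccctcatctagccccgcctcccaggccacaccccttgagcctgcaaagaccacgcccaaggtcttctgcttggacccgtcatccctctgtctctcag
Acads: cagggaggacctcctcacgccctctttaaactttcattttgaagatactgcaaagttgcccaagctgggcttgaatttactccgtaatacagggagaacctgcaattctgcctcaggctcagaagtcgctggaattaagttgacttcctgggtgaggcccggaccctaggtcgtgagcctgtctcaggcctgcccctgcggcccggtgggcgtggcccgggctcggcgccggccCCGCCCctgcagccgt

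All motifs were searched on both strands of the 250 upstream bases, over every gene of the promoter table. An exact form of the PPAR motif, a pair of AGGTCA copies in tandem with 1 base between them, was searched. It was found upstream of 0 of the 25 genes and of 0.0407% of all 27025 genes in the table. A form this rare cannot set the 25 genes apart from others. Looser forms of the motif were not searched. AAGGTCA, which can overlap that motif, was found only upstream of Acadm (4.0% of the 25, 4.7% of all genes). The NRF1 motif stood upstream of Etfb, Etfdh and Abcd3 (12% and 4.23%). GC boxes stood upstream of 16 of the 25 (64.0%) and of 35.4% of all genes, and CCAAT upstream of 10 of the 25 and of 37.5% of all genes. Of the 7 genes with an entry that fell in icKO nerves, 4 had a GC box. A match describes letters and is not shown to be a site.

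Most of the 32 genes were lower in icKO nerves, by modest amounts. In limma on log2(FPKM + 1), with Benjamini-Hochberg adjustment over all tested genes, 11 genes fell, Acads was the 1 that rose, and 20 were not past an adjusted p of 0.05. The genotypes differed widely in the transcriptome, and of the 12860 genes tested 42.9% passed, 22.1% lower and 20.8% higher in icKO nerves. The 12 genes that passed are 37.5% of the set, which is near that background, while the 11 that fell are 34.4% and the 1 that rose is 3.12%. The differences were negative in 26 of the 32 genes (81.2%), against 51.0% of all tested genes, with a median of -0.26 in the set and -0.012 over all tested genes on the log2(FPKM + 1) scale. In 13 genes all icKO libraries lay below all flox libraries and in 3 above them, and over all tested genes the groups did not overlap in 57.2%, with icKO below in 28.9% and above in 28.4%. The summed level of the set was 427, 379 and 457 FPKM in icKO nerves, against 503, 505 and 512 FPKM in flox nerves.

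**Figure D1:**
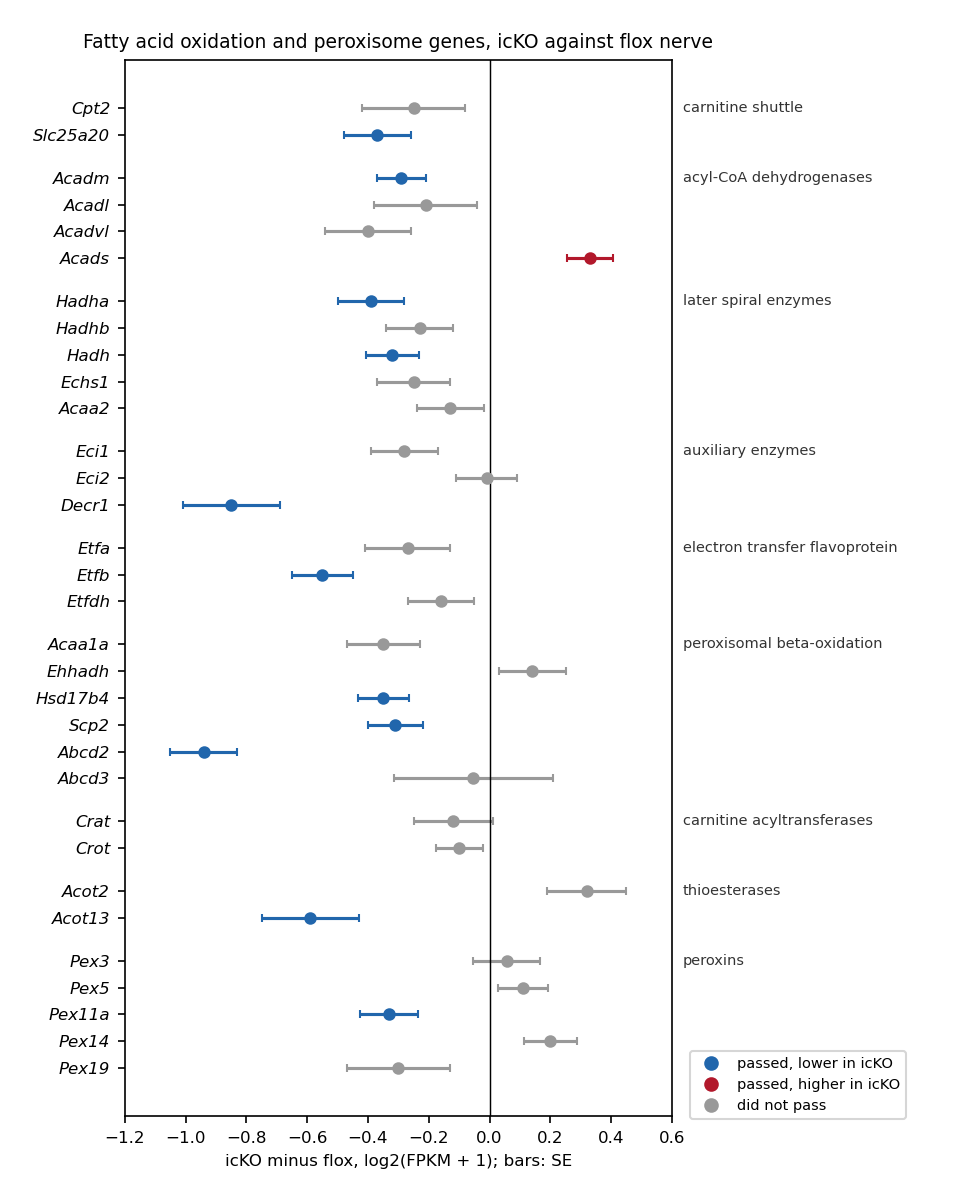
Difference of each of the 32 genes between icKO and flox nerves, in groups by role, on the log2(FPKM + 1) scale, with bars for the standard error. Of the 32 points, 26 lie left of 0, and those furthest left are Abcd2 at -0.94 and Decr1 at -0.85.

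The number of falls changed when single libraries were left out, and such fits also have fewer replicates. How much of the change came from fewer replicates was not tested. Of the 32 genes, 4 fell without flox replicate 1, 5 without flox replicate 2 and 4 without flox replicate 3. Of all tested genes 19.5%, 15.3% and 14.9% fell in these 3 fits, so the set was then near or below the background. Without icKO replicates 1, 2 and 3 the falls numbered 9, 7 and 14. The shares of all tested genes were then 19.1%, 18.1% and 22.6%. The median difference of the set moved less, from -0.26 on the log2(FPKM + 1) scale with all 6 libraries. It was -0.29, -0.25 and -0.23 without flox replicates 1, 2 and 3. Without icKO replicates 1, 2 and 3 it was -0.24, -0.19 and -0.33. Only Decr1, Etfb and Abcd2 passed in all 6 fits with a library left out. The flox libraries lay close together and the icKO libraries did not. The median SD of the 32 genes on the log2(FPKM + 1) scale was 0.183 in icKO and 0.0631 in flox nerves, against 0.146 and 0.0993 over all tested genes. Of the icKO libraries, replicate 2 had the lowest value in 20 of the 32 genes and replicate 3 the highest in 19, while over all tested genes these shares were 40.8% and 41.7%.

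Entry into mitochondria came first in the pathway. Slc25a20, the carrier that exchanges acylcarnitine for carnitine across the inner mitochondrial membrane, was at 3.48, 3.26 and 4.01 FPKM in icKO nerves and at 5.69, 4.66 and 4.40 FPKM in flox nerves. The groups did not overlap, and the fall of 0.37 on the log2(FPKM + 1) scale passed (SE 0.11, limma, Benjamini-Hochberg adjusted p = 0.0385). It kept the call only without icKO replicate 3 when single libraries were dropped (adjusted p-values 0.0327 to 0.102). Cpt2, which turns acylcarnitine back into acyl-CoA on the matrix side, was at 6.58, 5.75 and 9.55 FPKM in icKO nerves and at 8.0, 9.38 and 8.68 FPKM in flox nerves. Its icKO replicate 3 lay above all flox libraries, and the difference did not pass (adjusted p = 0.273). When single libraries were dropped, Cpt2 passed only without icKO replicate 3 (limma, Benjamini-Hochberg adjusted p = 0.0205).

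The acyl-CoA dehydrogenases, which differ in the chain length they prefer, did not move together. Acadm, for medium chains, was at 18.2, 17.1 and 19.5 FPKM in icKO nerves and at 22.0, 23.6 and 22.0 FPKM in flox nerves. It fell by 0.29 on the log2(FPKM + 1) scale (SE 0.081, limma, Benjamini-Hochberg adjusted p = 0.0272), with adjusted p-values of 0.0213 to 0.103 when single libraries were left out and a call only without icKO replicate 3. Acads, for short chains, was at 13.0, 11.8 and 12.3 FPKM in icKO nerves and at 9.38, 10.0 and 9.53 FPKM in flox nerves. All icKO libraries were higher, and this was the only gene of the 32 that rose (log2(FPKM + 1) difference 0.33, SE 0.075, adjusted p = 0.0132), a call lost without flox replicate 3 (adjusted p = 0.0558). Acadvl, for very long chains, was at 15.5, 12 and 17.8 FPKM in icKO nerves and at 20.2, 20.3 and 19.7 FPKM in flox nerves. The groups did not overlap, yet the difference of -0.40 narrowly missed the threshold (SE 0.14, adjusted p = 0.0524), and it passed without icKO replicate 3 (adjusted p = 0.0177). Acadl, for long chains, was at 22.0 to 35.6 FPKM in icKO and 32.5 to 34.2 FPKM in flox nerves and did not pass. The level of Acads was 0.716, 0.693 and 0.632 times that of Acadm in icKO nerves, and 0.426, 0.424 and 0.434 times in flox nerves.

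Of the enzymes that complete the spiral, all 5 had negative differences and 2 passed. Hadha and Hadhb encode the subunits of the mitochondrial trifunctional protein and share the upstream stretch printed above. Hadha was at 11.8, 10.4 and 13.9 FPKM in icKO nerves and at 15.3, 16.4 and 16.2 FPKM in flox nerves, without overlap. It fell by 0.39 on the log2(FPKM + 1) scale (SE 0.11, limma, Benjamini-Hochberg adjusted p = 0.0308), and with single libraries dropped it kept the call only without icKO replicate 3 (adjusted p-values 0.00959 to 0.0942). Hadhb was at 10.2, 10.0 and 12.4 FPKM in icKO nerves and at 11.7, 13.7 and 13.4 FPKM in flox nerves. Its icKO replicate 3 lay above flox replicate 1, and the difference of -0.23 did not pass (adjusted p = 0.128), though it passed without icKO replicate 3 (adjusted p = 0.0369). The ratio of Hadha to Hadhb was 1.16, 1.03 and 1.12 in icKO nerves and 1.30, 1.20 and 1.21 in flox nerves.

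Hadh, the dehydrogenase for medium and short hydroxyacyl chains, was at 15.5, 13.0 and 14.9 FPKM in icKO nerves and at 17.8, 18.4 and 18.7 FPKM in flox nerves, a fall of 0.32 on the log2(FPKM + 1) scale (SE 0.087, limma, Benjamini-Hochberg adjusted p = 0.0245). The call was lost without any of flox replicates 1, 2 and 3 (adjusted p = 0.0525, 0.0800 and 0.0856). Echs1, the short-chain hydratase, was at 7.40 to 10.0 FPKM in icKO and 9.47 to 10.5 FPKM in flox nerves, and passed only without icKO replicate 1 (adjusted p = 0.139 with all libraries and 0.0203 without it). Acaa2, the mitochondrial thiolase, had the highest level of the 32 genes, at 42.1 to 54.8 FPKM in icKO and 49.8 to 53.5 FPKM in flox nerves, and did not pass (adjusted p = 0.386).

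**Figure D2:**
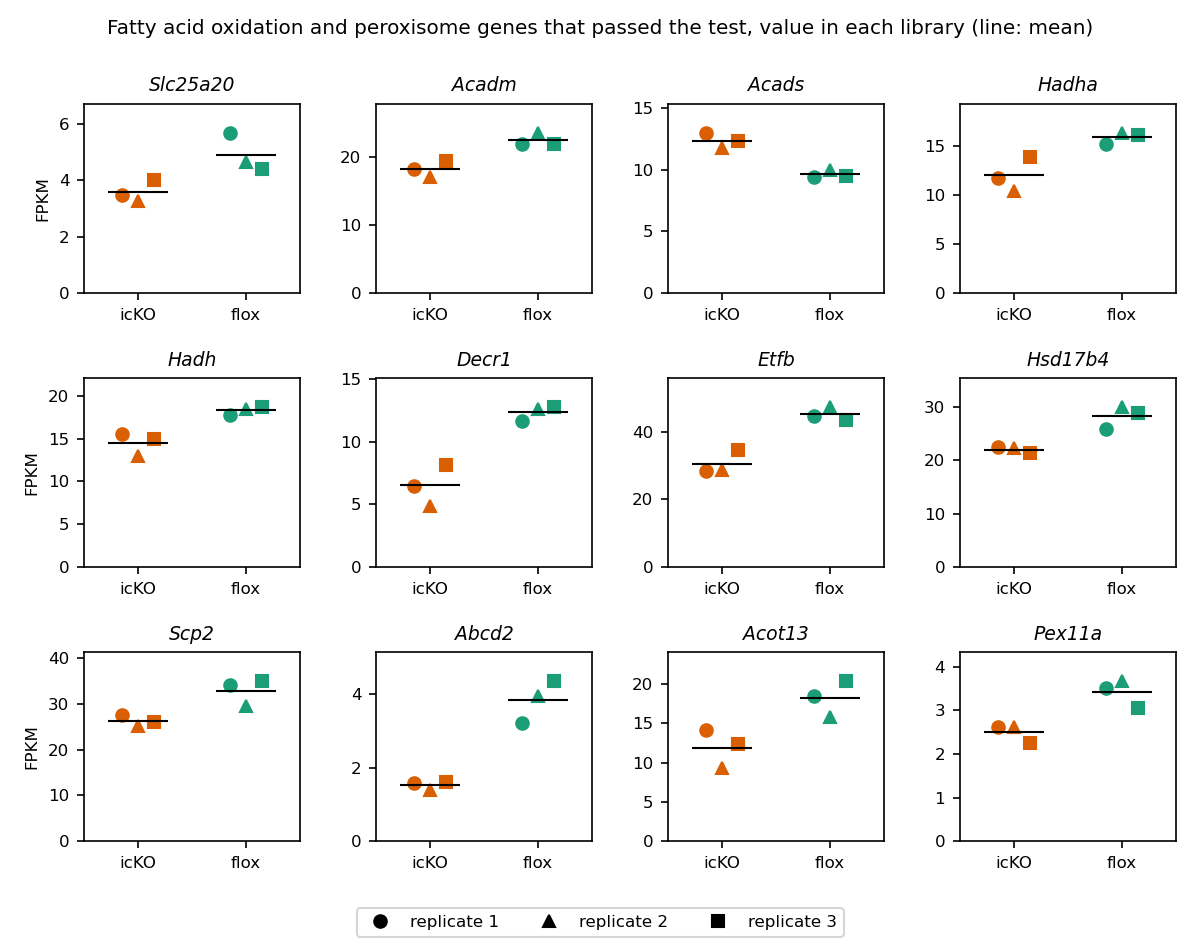
FPKM in each icKO and flox library of the 12 genes that passed, with replicates 1, 2 and 3 as circle, triangle and square and a line at each group mean. The genes were picked by the test on these same values. The groups do not overlap in any panel, nor in 57.2% of all tested genes, and Acads is the only gene with the icKO libraries on top.

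Unsaturated fatty acids need auxiliary enzymes, and among these Decr1 stood out. Decr1, the mitochondrial dienoyl-CoA reductase, was at 6.49, 4.91 and 8.18 FPKM in icKO nerves and at 11.7, 12.6 and 12.8 FPKM in flox nerves. The icKO mean of 6.53 ± 1.64 FPKM was 52.7% of the flox mean of 12.4 ± 0.593 FPKM (SD, n = 3 each). The fall of 0.85 on the log2(FPKM + 1) scale (SE 0.16) passed with all libraries (limma, Benjamini-Hochberg adjusted p = 0.00650) and without each (0.00333 to 0.0278). Decr2, the peroxisomal reductase of the same reaction and not among the 32, was at 3.46, 2.08 and 2.45 FPKM in icKO nerves and at 6.93, 6.92 and 7.09 FPKM in flox nerves and also fell (log2(FPKM + 1) difference -1.14, SE 0.14, adjusted p = 0.00158). The enoyl-CoA isomerases differed less. Eci1 was at 7.95 to 9.79 FPKM in icKO and 9.66 to 11.4 FPKM in flox nerves (adjusted p = 0.0717, and 0.0303 without icKO replicate 3), and Eci2 at 7.14 to 9.12 and 7.85 to 8.48 FPKM (adjusted p = 0.944).

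The electron transfer flavoprotein takes electrons from the acyl-CoA dehydrogenases and passes them through Etfdh to ubiquinone. Etfb, its beta subunit, was at 28.3, 28.7 and 34.5 FPKM in icKO nerves and at 44.7, 47.3 and 43.4 FPKM in flox nerves, well apart. Its icKO mean of 30.5 ± 3.43 FPKM was 67.6% of the flox mean of 45.1 ± 2.0 FPKM (SD, n = 3 each). The fall of 0.55 on the log2(FPKM + 1) scale (SE 0.10, limma, Benjamini-Hochberg adjusted p = 0.00560) passed without each library in turn (0.00331 to 0.0258). Etfa, the alpha subunit that pairs with it in the protein, was at 20.2, 16.6 and 24.3 FPKM in icKO nerves and at 22.6, 24.9 and 26.2 FPKM in flox nerves. The groups overlapped and Etfa did not pass (adjusted p = 0.163). When single libraries were dropped, it passed only without icKO replicate 3 (adjusted p = 0.0367). Etfb was 1.41, 1.73 and 1.42 times the level of Etfa in icKO nerves and 1.98, 1.90 and 1.66 times in flox nerves. Etfdh was at 4.57 to 6.11 FPKM in icKO and 5.67 to 6.20 FPKM in flox nerves (adjusted p = 0.258).

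In the peroxisomal pathway 3 of 6 genes fell and none rose. Abcd2, a transporter of very long chain acyl-CoA, had the lowest level of the 32 genes and the largest fall. It was at 1.58, 1.38 and 1.60 FPKM in icKO nerves and at 3.23, 3.97 and 4.37 FPKM in flox nerves, so every icKO library was below every flox library. The log2(FPKM + 1) difference, which is too small a measure for a gene this low, was -0.94 (SE 0.11, limma, Benjamini-Hochberg adjusted p = 0.00147), and it passed without each library in turn (0.00266 to 0.00856). Its icKO mean was 39.5% of the flox mean. Abcd3, a related transporter that is abundant in peroxisomal membranes, was at 11.9, 6.50 and 15.1 FPKM in icKO nerves and at 10.7, 11 and 11.4 FPKM in flox nerves. The icKO libraries lay on both sides of the flox libraries and the difference of -0.053 did not pass (SE 0.26, adjusted p = 0.885).

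Hsd17b4, the D-bifunctional protein that hydrates and dehydrogenates acyl chains in peroxisomes, was at 22.4, 22.2 and 21.3 FPKM in icKO nerves and at 25.8, 30.0 and 28.9 FPKM in flox nerves. It fell by 0.35 on the log2(FPKM + 1) scale (SE 0.084, limma, Benjamini-Hochberg adjusted p = 0.0168), and missed the threshold without flox replicate 2 or 3 (0.0691 and 0.0668). Ehhadh, the L-bifunctional protein with an overlapping role, was at 5.01 to 6.72 FPKM in icKO and 5.07 to 5.46 FPKM in flox nerves and did not pass (adjusted p = 0.339). Scp2, which encodes a sterol carrier protein and a peroxisomal thiolase for branched chains, was at 27.6, 25.2 and 26.1 FPKM in icKO nerves and at 34.0, 29.6 and 35 FPKM in flox nerves. Its fall of 0.31 (SE 0.091, adjusted p = 0.0330) held only without flox replicate 2 when single libraries were dropped (adjusted p-values 0.0326 to 0.119). Acaa1a, a peroxisomal thiolase, was at 17.2, 12.5 and 14.8 FPKM in icKO nerves and at 19.5, 19.1 and 18.5 FPKM in flox nerves. The groups did not overlap and the difference of -0.35 narrowly missed the threshold (SE 0.12, adjusted p = 0.0504), and it passed without icKO replicate 1 (adjusted p = 0.0213). Acaa1a has a near-identical copy, Acaa1b, with which it can share fragments, so its level is uncertain.

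The carnitine acyltransferases did not pass. Crat, which acts on short chains in mitochondria and peroxisomes, was at 8.40 to 11.4 FPKM in icKO and 9.73 to 11.9 FPKM in flox nerves (limma, Benjamini-Hochberg adjusted p = 0.471), and Crot, which acts on medium chains in peroxisomes, at 6.32 to 6.95 and 6.88 to 7.45 FPKM (adjusted p = 0.325). The thioesterases, which split acyl-CoA into free acid and CoA, lay on opposite sides. Acot13 was at 14.1, 9.31 and 12.3 FPKM in icKO nerves and at 18.5, 15.8 and 20.4 FPKM in flox nerves. It fell by 0.59 on the log2(FPKM + 1) scale (SE 0.16, adjusted p = 0.0252), but not without flox replicate 1 or 3 (0.0659 and 0.0847). Acot2 was at 5.75, 5.71 and 7.79 FPKM in icKO nerves and at 4.76, 5.33 and 4.65 FPKM in flox nerves. All icKO libraries were above the flox libraries, and the difference of 0.32 did not pass (SE 0.13, adjusted p = 0.0834). Acot2 has a near-identical neighbour, Acot1, and its level is likewise uncertain.

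Peroxins build the organelle and import its enzymes, and 1 of the 5 passed. Pex11a, which promotes the division of peroxisomes, was at 2.63, 2.62 and 2.26 FPKM in icKO nerves and at 3.52, 3.68 and 3.05 FPKM in flox nerves. Its groups did not overlap, and it fell by 0.33 on the log2(FPKM + 1) scale (SE 0.095, limma, Benjamini-Hochberg adjusted p = 0.0293). The call was lost without icKO replicate 3 and without flox replicate 1 or 2 (0.0658, 0.0788 and 0.106). Pex14, the docking protein of the import channel, was at 5.05, 5.11 and 5.89 FPKM in icKO nerves and at 4.53, 4.76 and 4.27 FPKM in flox nerves, higher in every icKO library but short of the threshold (difference 0.20, SE 0.087, adjusted p = 0.105). Pex5, the receptor for most imported enzymes, was at 9.92 to 11.3 FPKM in icKO and 9.22 to 10.1 FPKM in flox nerves. Pex3 and Pex19, which insert membrane proteins, were at 4.42 to 5.95 and 17.4 to 25.5 FPKM in icKO nerves, and at 4.56 to 5.04 and 24.9 to 32.3 FPKM in flox nerves. None of these 3 passed (adjusted p = 0.287, 0.708 and 0.185 for Pex5, Pex3 and Pex19).

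The rest of the pathway was described with 98 further genes, of which 86 passed the filter of a mean of 1 FPKM. In limma with Benjamini-Hochberg adjustment 35 of them fell (40.7%) and 13 rose (15.1%), against 22.1% and 20.8% of all tested genes. Their median difference was -0.21 on the log2(FPKM + 1) scale. Without flox replicate 2 or 3 the falls were 23 and 21, where 15.3% and 14.9% of all tested genes fell. The lists were drawn up with earlier results of these data known, so that their counts are descriptions.

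Of 23 tested genes listed as peroxisomal enzymes and transporters outside the set 12 fell and 2 rose. The falls are 52.2% of the list, against 22.1% of all tested genes. The list includes Abcd4, which fell, and Mpv17, which did not pass, and the location of its products was not checked. The falls numbered 8 without icKO replicate 3, 6 without flox replicate 1, 7 without flox replicate 2 and 5 without flox replicate 3, where 21.7% of the list and 14.9% of all tested genes fell. Cat, the catalase that breaks down the hydrogen peroxide made by peroxisomal oxidases, was at 65.1, 62.4 and 54.6 FPKM in icKO nerves and at 135, 121 and 118 FPKM in flox nerves (log2(FPKM + 1) difference -1.03, SE 0.10, limma, Benjamini-Hochberg adjusted p = 8.43e-04). Far1, a reductase that supplies fatty alcohol for ether lipids, was at 8.92, 3.75 and 8.41 FPKM in icKO nerves and at 15.4, 11.6 and 12.8 FPKM in flox nerves. Far1 fell (adjusted p = 0.0427), but missed the threshold without flox replicate 1, 2 or 3 (0.113, 0.0734 and 0.0958). Gnpat and Agps, the peroxisomal enzymes of ether lipid synthesis, were also among the 12, and Gnpat kept the call in 5 of the 6 fits with a library dropped. Pxmp2, a channel of the peroxisomal membrane, rose to 14.1, 17.5 and 19.7 FPKM in icKO nerves, against 3.58, 3.50 and 4.94 FPKM in flox nerves (difference 1.86, SE 0.16, adjusted p = 6.62e-04). Ide, a protease that carries a peroxisomal signal but is found largely in the cytosol, rose as well (adjusted p = 0.0157), a call lost without flox replicate 1 or 2 (0.0502 and 0.0625).

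Of 11 other peroxins 4 fell (36.4%) and 2 rose (18.2%), against 22.1% and 20.8% of all tested genes. There was 1 rise without icKO replicate 2 or flox replicate 2. Pex7, the receptor for enzymes with an N-terminal signal, was at 1.38, 1.15 and 1.33 FPKM in icKO nerves and at 2.39, 2.23 and 2.51 FPKM in flox nerves (limma, Benjamini-Hochberg adjusted p = 0.00383). Pex10, a ubiquitin ligase subunit of the import machinery, and Pex16, which acts in membrane assembly, fell with adjusted p-values of 0.00558 and 0.00718. Pex5l, a homologue of Pex5 known in neurons for its binding to HCN channels, rose to 35, 33.8 and 22.4 FPKM in icKO nerves, against 17.5, 15.6 and 10.9 FPKM in flox nerves (adjusted p = 0.0124).

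Among 17 genes of fatty acid uptake, activation and carnitine entry 6 fell (35.3%) and 1 rose (5.88%). The shares of all tested genes were 22.1% and 20.8%. Acsl3, an acyl-CoA synthetase, was at 8.01, 9.47 and 7.61 FPKM in icKO nerves and at 20.3, 24.5 and 33.9 FPKM in flox nerves (log2(FPKM + 1) difference -1.51, SE 0.19, limma, Benjamini-Hochberg adjusted p = 0.00160). Fabp5, a cytosolic fatty acid carrier, was at 6.57, 4.55 and 7.19 FPKM in icKO nerves and at 16.7, 18.0 and 19.6 FPKM in flox nerves (adjusted p = 0.00112). Cpt1c, a neuronal relative of the entry enzyme, fell too (adjusted p = 0.00291). The uptake protein gene Slc27a1 rose to 71.5, 74.4 and 48.1 FPKM in icKO nerves, against 44.8, 38.5 and 31.8 FPKM in flox nerves (adjusted p = 0.0252). Slc27a1 lost the call without icKO replicate 1 or 2 (0.0801 and 0.0751) and without flox replicate 2 or 3 (0.0646 and 0.0809). Cpt1a, the rate-limiting enzyme of mitochondrial entry in most tissues, was at 13.5, 7.89 and 10.4 FPKM in icKO nerves and at 12.6, 13.6 and 11.1 FPKM in flox nerves (adjusted p = 0.323). The muscle form Cpt1b was at 2.34, 2.57 and 2.71 FPKM in icKO nerves and at 2.91, 1.30 and 0.423 FPKM in flox nerves (adjusted p = 0.190), and it passed as higher without flox replicate 1 (0.0194). Acsl1, the main synthetase of fat and muscle, was at 8.83, 3.36 and 12.1 FPKM in icKO nerves and at 19.7, 11.1 and 17.8 FPKM in flox nerves (adjusted p = 0.0880, and 0.0389 without icKO replicate 3).

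Mitochondrial enzymes outside the set, several of them for amino acids or branched chains, fell in 8 of 17 cases (47.1%) and rose in 2 (11.8%). Of all tested genes 22.1% fell and 20.8% rose. The falls numbered 3 without flox replicate 2 (17.6%, against 15.3% of all tested genes). Without flox replicate 3 they numbered 4 (23.5%, against 14.9%). Pcca, a subunit of propionyl-CoA carboxylase, was at 2.13, 2.03 and 2.0 FPKM in icKO nerves and at 3.56, 4.42 and 4.41 FPKM in flox nerves (limma, Benjamini-Hochberg adjusted p = 0.00193). Acat1, the acetoacetyl-CoA thiolase, and Acad11, a dehydrogenase for long chains, fell with adjusted p-values of 0.00833 and 0.00909. Acss1, which activates acetate in mitochondria, rose to 16.9, 19.4 and 16.7 FPKM in icKO nerves, against 6.35, 6.32 and 5.69 FPKM in flox nerves (log2(FPKM + 1) difference 1.39, SE 0.091, adjusted p = 3.75e-04). Acot9, a mitochondrial thioesterase, rose with an adjusted p of 0.0415. When single libraries were dropped it kept the call only without flox replicate 2 (0.0477 to 0.135). Of 4 tested genes of ketone body metabolism, Oxct1, which lets tissues use ketone bodies, fell to 12.7, 9.83 and 8.07 FPKM in icKO nerves, against 17.8, 19.6 and 19.8 FPKM in flox nerves (adjusted p = 0.00537). Bdh1, the enzyme that interconverts the ketone bodies, rose (adjusted p = 0.0330), though not without icKO replicate 2, flox replicate 1 or flox replicate 2 (0.0565, 0.0931 and 0.0936).

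**Figure D3:**
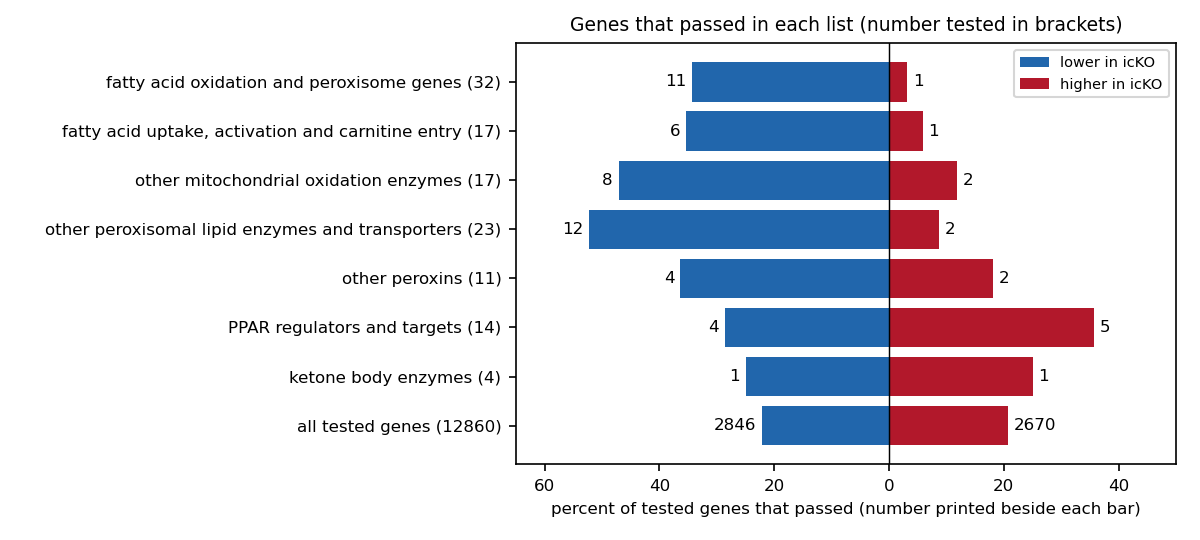
Percent of the tested genes of each list that passed as lower (left of 0) or higher (right of 0) in icKO than in flox nerves, with the number of genes beside each bar. The falls outnumber the rises in the 32 genes (11 and 1) and in the list of other peroxisomal enzymes and transporters (12 and 2). All tested genes gave 2846 and 2670.

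Receptors of the PPAR family switch on many genes of fatty acid oxidation, and their own list moved both ways. Of 14 tested genes 5 were higher (35.7%) and 4 lower (28.6%), against 20.8% and 22.1% of all tested genes. The rises numbered 3 without icKO replicate 1, icKO replicate 3 or flox replicate 3. Pdk4, a kinase that holds back pyruvate oxidation and a known PPAR target, rose to 35.6, 40.7 and 47.0 FPKM in icKO nerves, against 9.42, 5.08 and 5.64 FPKM in flox nerves (log2(FPKM + 1) difference 2.48, SE 0.22, limma, Benjamini-Hochberg adjusted p = 6.98e-04). Rxra, the partner receptor of PPARs, rose as well (difference 0.86, SE 0.13, adjusted p = 0.00325). Angptl4, a secreted inhibitor of lipoprotein lipase and a PPAR target, rose (adjusted p = 0.0303), a call lost without icKO replicate 1 or 3 (0.0853 and 0.0604) and without flox replicate 1 or 3 (0.0532 and 0.0741). Pparg, the receptor of fat cells, fell to 1.51, 1.92 and 2.31 FPKM in icKO nerves, against 4.57, 4.70 and 4.28 FPKM in flox nerves (adjusted p = 0.00174). The uncoupling protein gene Ucp2 and the lipid droplet gene Plin2 fell too (adjusted p = 0.0120 and 0.00310). Ppara was at 0.666, 0.724 and 1.43 FPKM in icKO nerves and at 0.748, 1.06 and 1.01 FPKM in flox nerves, below the filter. Ppargc1a, a coactivator of oxidative genes, was at 1.15, 1.10 and 1.43 FPKM in icKO nerves and at 1.09, 1.29 and 1.46 FPKM in flox nerves (adjusted p = 0.824).

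Markers of fat and muscle, tissues that adjoin the nerve and express many genes of fatty acid metabolism, differed in level between libraries. Of 11 tested adipocyte markers 10 fell, and the summed level of the 12 listed was 146, 116 and 207 FPKM in icKO nerves, against 597, 608 and 505 FPKM in flox nerves. None of the 12 was at 0 in any library, and 1 of them, Fabp4, also stands in the list of fatty acid uptake. Cfd, the marker with the highest level, was at 55.7 to 90.9 FPKM in icKO and 299 to 405 FPKM in flox nerves, Adipoq at 6.12 to 13.0 and 45.9 to 52.8 FPKM, and Plin1 at 0.928 to 2.14 and 9.47 to 12.2 FPKM. The ranges are far apart, so a share of fat transcripts and the genotype cannot be told apart here. Among the icKO libraries, replicate 2 had the lowest and replicate 3 the highest sum, both of adipocyte markers and of the 32 genes. Among the flox libraries the orders differed, and replicate 3 had the lowest sum of adipocyte markers and the highest of the 32 genes. Of 9 brown adipocyte markers, summed at 4.50 to 16.7 FPKM in icKO and 18.1 to 19.2 FPKM in flox nerves, 2 of 4 tested fell. Cox8b, the highest of them, was at 0.583, 0.571 and 8.95 FPKM in icKO nerves and at 6.26, 3.50 and 4.44 FPKM in flox nerves. Its highest value in each group was in the library with the most skeletal muscle transcripts. The defining Ucp1 was at 0.0935 FPKM or less in all 6 libraries. Cidea, below the filter, was higher in every icKO library, at 0.299, 0.807 and 1.14 FPKM against 0.104, 0.0433 and 0.174 FPKM in flox nerves. Otop1 had the largest difference of the 4 tested (-2.31 on the log2(FPKM + 1) scale, SE 0.10, limma, Benjamini-Hochberg adjusted p = 2.42e-04). It was at 0.267, 0.290 and 0.441 FPKM in icKO nerves and at 5.35, 5.43 and 6.04 FPKM in flox nerves. All 4 tested markers had negative differences, and the low, untested Cidea lay the other way.

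The 20 skeletal muscle markers summed to 27.8, 42.2 and 1587 FPKM in icKO nerves and to 1365, 276 and 373 FPKM in flox nerves. Acta1, the highest of them, was at 2.15, 6.07 and 771 FPKM in icKO nerves and at 309, 61.6 and 80.6 FPKM in flox nerves, and Ckm at 0.396, 1.82 and 100.5 FPKM against 151, 25.7 and 38.1 FPKM. Muscle transcripts thus set icKO replicate 3 and flox replicate 1 apart, and 1 of 18 tested markers fell. These 2 libraries did not share the same muscle profile. Myh2 and Myh7 were at 35.7 and 10.9 FPKM in icKO replicate 3 and at 0.717 and 0.0204 FPKM in flox replicate 1. Myh4 and Pvalb were at 31.0 and 10.4 FPKM in icKO replicate 3 and at 117 and 134 FPKM in flox replicate 1. An average over the markers, as used below, does not hold this difference. Myh3, Myh8 and Cox6a2 were at 0 in at least 1 library. With the average muscle marker level of a library as a covariate, 6 of the 32 genes fell, all of them among the 11, and 2 rose (limma, Benjamini-Hochberg adjusted p under 0.05). Of all tested genes 19.9% fell in that fit, so the falls of the set were near the background. The 6 were Hadh, Decr1, Etfb, Hsd17b4, Abcd2 and Pex11a, and the rises were Acads and Acot2. The median difference of the set in the covariate fit was -0.21 on the log2(FPKM + 1) scale. Without the 2 muscle-rich libraries 12 genes fell, of which 7 were among the 11, and none rose, with a median difference of -0.32. Of all tested genes 21.4% fell in that fit. The muscle sums left were 27.8 and 42.2 FPKM in icKO and 276 and 373 FPKM in flox nerves. Muscle share and genotype therefore cannot be told apart in that fit.

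**Figure D4:**
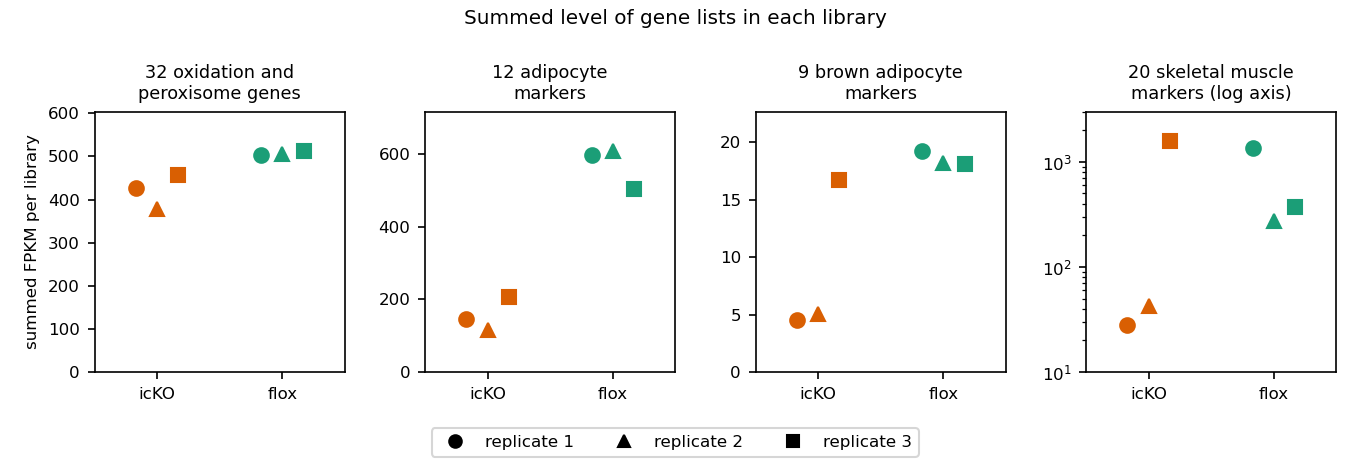
Summed FPKM in each library of the 32 fatty acid oxidation and peroxisome genes and of the adipocyte, brown adipocyte and skeletal muscle markers, the last on a log axis. The icKO libraries lie below the flox libraries for the first 3 sums, and for muscle icKO replicate 3 (1587 FPKM) and flox replicate 1 (1365 FPKM) stand above the others.

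Markers of the other cell types were summed in the same way, and their counts stand beside 22.1% lower and 20.8% higher over all tested genes. Summed Schwann cell markers were at 31131 to 35662 FPKM in icKO and 29714 to 31670 FPKM in flox nerves, with 3 of 10 lower and 1 higher. Nerve fibroblast markers summed to 794 to 824 FPKM in icKO and 938 to 1874 FPKM in flox nerves (4 of 9 lower, 1 higher), with Col1a1 highest at 251 to 282 and 356 to 639 FPKM. Endothelial markers summed to 76.2 to 88.3 FPKM in icKO and 95.6 to 98.8 FPKM in flox nerves (3 of 8 lower, 1 higher), with Cldn5 highest at 29.2 to 35.8 and 41.8 to 44.9 FPKM. Macrophage markers summed to 113 to 121 FPKM in icKO and 102 to 221 FPKM in flox nerves (0 of 8 tested passed), with Lyz2 highest at 38.8 to 41.8 and 42.4 to 93.2 FPKM. No marker of these 4 lists was at 0 in a library. Their part in the levels of the 32 genes was not tested.

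**Figure D5:**
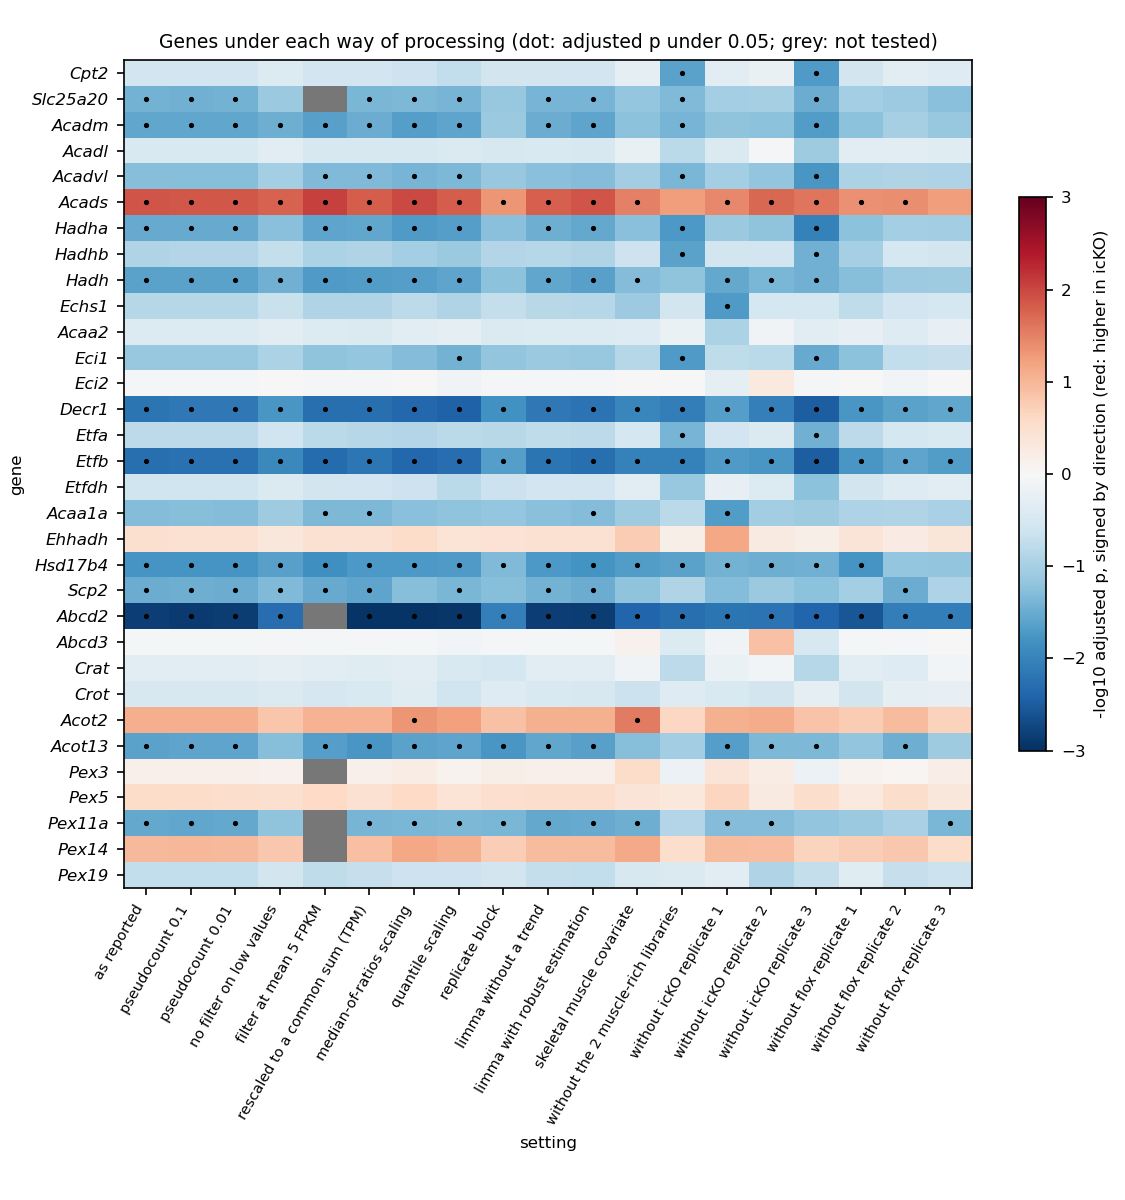
Adjusted p of each of the 32 genes, as -log10 with the sign of the difference (red: higher in icKO, blue: lower in icKO), under each way of processing, with dots where it was under 0.05 and grey where a gene was not tested. Decr1, Etfb and Abcd2 carry a dot in every column in which they were tested.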

How the data were processed

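A single FPKM table, as the authors deposited it, covers 55335 genes in 6 libraries. StringTie 1.3.1c, STAR, DESeq2 1.16.1, FastQC 0.11.2 and build GRCm39 are named in the submitters' processing notes without a role or order. The annotation release and the handling of strand were not given, and overlapping or near-identical genes can share fragments. Symbols came from GENCODE M21 by gene ID (55154 IDs matched, 181 did not). Depth was estimated from the FPKM step of 1 fragment in genes with a single annotated transcript (486 to 517 genes per library lay at that step). Whole reads were not recovered.

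Tests covered the 12860 genes whose mean reached 1 FPKM and used limma 3.58.1 (R 4.3.3) after adding 1 and taking log2, two-sided, with a variance trend and no covariate, and called at a Benjamini-Hochberg adjusted p under 0.05. The fit was first tested on simulated data in which 200 of 12860 genes were changed. It recovered 74% of those changed by 1 and 94% of those changed by 2 on the log2 scale, with 4 false calls. Differences under 1, such as those of the 32 genes, were not simulated, nor was a change in as many genes as passed here. The genes and lists were chosen with earlier results of these data known. All 32 genes are named. Of each further pathway list the 3 largest calls in each direction are named and always Cpt1a, Cpt1b, Cat, Ppara, Ppargc1a, Pdk4 and Acsl1, and of each marker list the highest gene, with Acta1, Ckm, Adipoq, Plin1 and Ucp1. Gnpat, Agps, Abcd4, Mpv17, Cidea, Otop1, Myh2, Myh4, Myh7 and Pvalb were named after their values were seen. Planned protein comparisons were not made, since protein sequences were not used here. A few genes that this rule names are not reported here.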

Additional observations from a re-analysis of the deposited data

How the results depend on the processing

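The median difference of the 32 genes stayed between -0.33 and -0.19 on the log2(FPKM + 1) scale under all alternatives run. Falls among them numbered 7 with no filter on low values and 6 with the skeletal muscle covariate, against 11 as reported. With that covariate 19.9% of all tested genes fell. Leaving out single libraries gave 4 to 14 falls and 0 to 1 rises among the 32 genes. Among the 86 further pathway genes it gave 21 to 33 falls and 9 to 11 rises. Among all tested genes it gave 3750 to 5458 calls, against 5516 with all 6, and 14.9% to 22.6% of them fell. Rises numbered 2 with median-of-ratios scaling, 2 at an adjusted p under 0.1, 2 with the muscle covariate and 0 without the 2 muscle-rich libraries. A filter at a mean of 5 FPKM tested fewer genes, with 3308 calls among 6888 genes and 19 falls among 55 pathway genes. With the replicate block 6 of the 32 genes fell and 1 rose. Of all tested genes 4596 passed in that fit, and 18.1% fell. Deviations of same-numbered libraries from their group means had correlations of -0.103, 0.043 and -0.055, so the numbers were not taken to pair them. Alternatives were run for the 32 genes and the pathway genes named by rule, and among these signs turned in genes that did not pass with all libraries: Eci2 to 0.005 with median-of-ratios scaling, Abcd3 to 0.11 with the muscle covariate, Pex3 to -0.056 without the 2 muscle-rich libraries, and Ppargc1a to 0.044 with quantile scaling. Without single libraries the differences ranged over -0.082 to 0.075 for Eci2, -0.29 to 0.26 for Abcd3, -0.050 to 0.13 for Pex3 and -0.10 to 0.022 for Ppargc1a. Of the other comparisons of single genes with an alternative, 1036 kept direction and side of the threshold, 87 lost a call and 31 gained one. Except where stated, the cause was not tested.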
